A study of Mus musculus with 2 samples.

Results

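The 8 genes described are *Arg1*, *Nos2*, *Ido1*, *Il4i1*, *Acod1*, *Chil3*, *Mrc1* and *Retnla*, the enzymes and markers most often used to describe how macrophages are polarized. They were chosen by symbol from the 32589 genes listed in both libraries, and all 8 were found. Single-cell RNA-Seq was done on tumor-bearing mouse livers in 2 libraries, 1 per group, so there was no replicate and no test between the groups. In both groups CCA (cholangiocarcinoma) was induced by hydrodynamic tail vein injection of plasmids for NICD, an active Notch receptor, and myr-AKT, an active AKT kinase. Both groups also carried shYT, doxycycline-inducible shRNAs against *Yap1* and *Wwtr1* under a ubiquitous (CAG) rtTA3 driver, switched on from day 25, so every cell type was exposed to the depletion and its own effect was not compared. The control group received PBS. The other received anti–PD-1 (clone RMP1-14), dosed at days 26, 29 and 32, and all were harvested on day 33. The labels give neither the shRNA line nor the sex, age or number of the animals. A legend of the study gives several animals per group, and the labels do not tie cells to them. Filters left 15531 PBS and 16360 anti–PD-1 cells, at median depths of 3159 and 2990 UMIs (unique molecular identifiers, each standing for 1 transcript).

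Macrophages are often placed between classical activation, driven by IFN-γ and microbial products, and alternative activation, driven by IL-4 and IL-13, and tumors hold cells of mixed character. Several of these genes encode enzymes that consume amino acids T cells need, namely arginine (*Arg1*, *Nos2*), tryptophan (*Ido1*) and phenylalanine (*Il4i1*). *Acod1* makes itaconate from a TCA cycle intermediate in inflammatory myeloid cells, while *Chil3*, *Mrc1* and *Retnla* are the usual mouse markers of alternative activation, *Chil3* being also a gene of maturing monocytes and neutrophils.

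In mm10 (GRCm38, GENCODE vM21) all 8 are protein-coding genes. *Arg1* (ENSMUSG00000019987) is at chr10:24915221-24927484 on the reverse strand, *Nos2* (ENSMUSG00000020826) at chr11:78920787-78960254 on the forward strand and *Ido1* (ENSMUSG00000031551) at chr8:24584136-24597009 on the reverse strand. *Il4i1* (ENSMUSG00000074141) is at chr7:44816387-44840809 and *Acod1* (ENSMUSG00000022126) at chr14:103046977-103056573, both on the forward strand. *Chil3* (ENSMUSG00000040809) is at chr3:106147554-106167564 on the reverse strand, *Mrc1* (ENSMUSG00000026712) at chr2:14229392-14332057 and *Retnla* (ENSMUSG00000061100) at chr16:48842551-48844461, the last 2 on the forward strand.

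The promoters of *Acod1* and *Chil3* are shown because these were the members that differed at least 2-fold, and in 1 direction, in each of macrophages, classical monocytes and neutrophils over all cells, *Acod1* being higher and *Chil3* lower with anti–PD-1. The sequences are from RefSeq (GRCm38.p6), 250 bases before and 20 after the annotated start, 5′ to 3′ on the gene's strand. *Acod1* is at chr14:103046762-103047031 (+) and *Chil3* at chr3:106167545-106167814 (−).
Acod1: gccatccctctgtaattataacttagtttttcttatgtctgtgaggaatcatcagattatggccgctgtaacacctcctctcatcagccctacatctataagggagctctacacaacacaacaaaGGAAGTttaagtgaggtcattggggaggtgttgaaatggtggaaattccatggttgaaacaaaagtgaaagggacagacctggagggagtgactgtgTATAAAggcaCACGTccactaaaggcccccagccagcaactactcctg
Chil3: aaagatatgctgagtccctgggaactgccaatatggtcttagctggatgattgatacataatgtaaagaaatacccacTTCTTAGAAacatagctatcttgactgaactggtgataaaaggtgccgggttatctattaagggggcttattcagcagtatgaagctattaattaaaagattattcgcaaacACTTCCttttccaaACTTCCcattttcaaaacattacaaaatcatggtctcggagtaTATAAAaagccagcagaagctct
Capitals mark matches, on either strand and not overlapping each other, to 7 motifs searched in windows from 250 bases before to 50 after the start: TATAAA, the ETS core GGAAGT, the STAT motif TTCNNNGAA and the same arms with 1 more base between them, the interferon-stimulated response element, the AP-1 motif TGANTCA and the hypoxia-response core ACGTG. *Acod1* held the TATA motif (first base at −28 from the start), the ETS motif and, on the opposite strand, the hypoxia-response core. *Chil3* held the TATA motif (first base at −3, so that it spans the annotated start), the ETS core in 2 copies on the opposite strand, and the STAT motif. Of 32851 promoter windows of this length, 13.6% held TATAAA, 23.8% GGAAGT, 8.30% TTCNNNGAA and 19.6% ACGTG, and a match is a description only.

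Cells were assigned to classes by marker genes that include none of the 8 members, with a scoring rule set after the data had been seen. All class names mean "X-like". The macrophage class held 3387 PBS and 1700 anti–PD-1 cells, Kupffer cells (the resident macrophages of the liver) 887 and 1587, classical monocytes 438 and 456, neutrophils 1208 and 2963, and the conventional dendritic cells cDC1 104 and 97 and cDC2 354 and 167. Non-classical monocytes (70 and 55 cells), mature DCs (70 and 59) and pDCs (76 and 58) were small. The macrophages were led by *Ms4a7*, *Fcrls*, *Ccl12*, *Cx3cr1* and *Trem2*, and the monocyte gate by *Elane*, *Mpo* and *Prtn3*, granule genes of progenitors.

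The libraries differed in ways that touch every value below. In the PBS library 6686 cells had *Xist* and no Y-linked UMI and 1481 had the reverse, whereas the anti–PD-1 library had 4 and 7861, so sex and treatment cannot be told apart over all cells. Different clusters held the same class. The clusters were made without integration of the libraries, so any difference between the libraries can split a class. Of the PBS macrophages, 1845 were in cluster 7 and 1088 in cluster 12, whereas 1115 of the anti–PD-1 macrophages were in cluster 9, with 28 from PBS. Neutrophils were likewise in cluster 11 for PBS (1057 cells) and cluster 2 for anti–PD-1 (2684). A total of 219 barcodes occurred in both libraries. Levels in T cells (median 2802 and 3715 UMIs a cell, against 7925 and 7488 in macrophages and 1577 and 2152 in neutrophils) are given as background for free RNA. In these sums fewer cells expressing a gene and less RNA per cell cannot be told apart, except where shares of cells are given. All intervals (95%) reflect counting error alone.

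With anti–PD-1, *Acod1* was at least 2-fold higher, and above its level in T cells, in macrophages, Kupffer cells, both kinds of monocyte and neutrophils. At lower levels it was also higher in T cells (log2 ratio 1.75), B cells (2.05), NK cells (2.55) and tumor cells (2.06). *Chil3* was at least 2-fold lower in both kinds of monocyte, neutrophils and macrophages. In macrophages it was under 2-fold among cells with Y-linked transcripts and no *Xist* (log2 ratio −0.53), and also with classes taken from clusters. T cells, which stand for background, had a *Chil3* ratio of −1.57, with Kupffer cells (−1.54) within overlapping intervals of the T cell level in each library and cDC1 (−1.35) below it. *Mrc1* was lower in Kupffer cells and macrophages. *Arg1* was higher in macrophages (1.47, or 0.77 without 72 anti–PD-1 and 11 PBS cells holding genes of cavity macrophages). Those genes were listed after they were seen to be high in anti–PD-1 macrophages rich in *Arg1*, so the lower value follows in part from that choice. *Arg1* was lower in classical monocytes (−3.11), which did not hold among the Y-linked cells (0.98, −0.72 to 1.86), where levels were near those of T cells. A gene was counted as measured in a class with at least 10 UMIs over both libraries. CPM are UMIs of a gene scaled to a common total (counts per 1e6 UMIs) of the class and library, and ratios are log2 of the anti–PD-1 CPM + 5 over the PBS CPM + 5. In macrophages 7 members were measured, of which 3 were at least 2-fold higher (*Arg1*, *Acod1*, *Retnla*), against 2.2% of all measured genes, and 1 at least 2-fold lower (*Chil3*), against 0.329%. Genes near the limit of 10 UMIs could not pass 2-fold in macrophages with 5 CPM added. The share over all genes is therefore a low background for more abundant members. The scarce *Nos2* fell short at 0.68 with 5 CPM added, while its plain CPM ratio was 6.14-fold (3.59 to 10.95). Of 6 members in classical monocytes 1 was 2-fold higher (background 3.45%) and 3 lower (1.55%). Of the 3, *Nos2* lost the call without cells holding granule genes (0.00) and turned to 1.74 without cells holding a marker of another lineage. Of 6 in neutrophils 1 was higher (2.22%) and 1 lower (3.67%), and of 5 in Kupffer cells 1 was higher (1.35%) and 1 lower (0.294%). Of 4 members in non-classical monocytes 1 was higher (7.84%) and 1 lower (10%). In cDC2 2 of 6 were higher (2.65%) and 1 lower (3.67%). Of these 2, *Retnla* rested on 1 cell (−0.11 without the highest cell of each library), and *Acod1* was at −1.97, on 4 and 0 UMIs, without cells holding a marker of another lineage. The lower call, *Mrc1*, was at 0.13 in that setting, on 27 and 11 UMIs, so none of the 3 calls held in every setting. In cDC1 none of 4 was higher (5.26%) and 1 lower (3.9%). No member passed 2-fold in mature DCs, where 1 was measured (5.67% of genes higher, 9.18% lower), or in pDCs, where 2 were (5.15% and 9.26%). Scaling by the median ratio in place of total UMIs would add 0.20 to each log2 ratio in macrophages, where the median over all genes was −0.09.

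**Figure D1:**
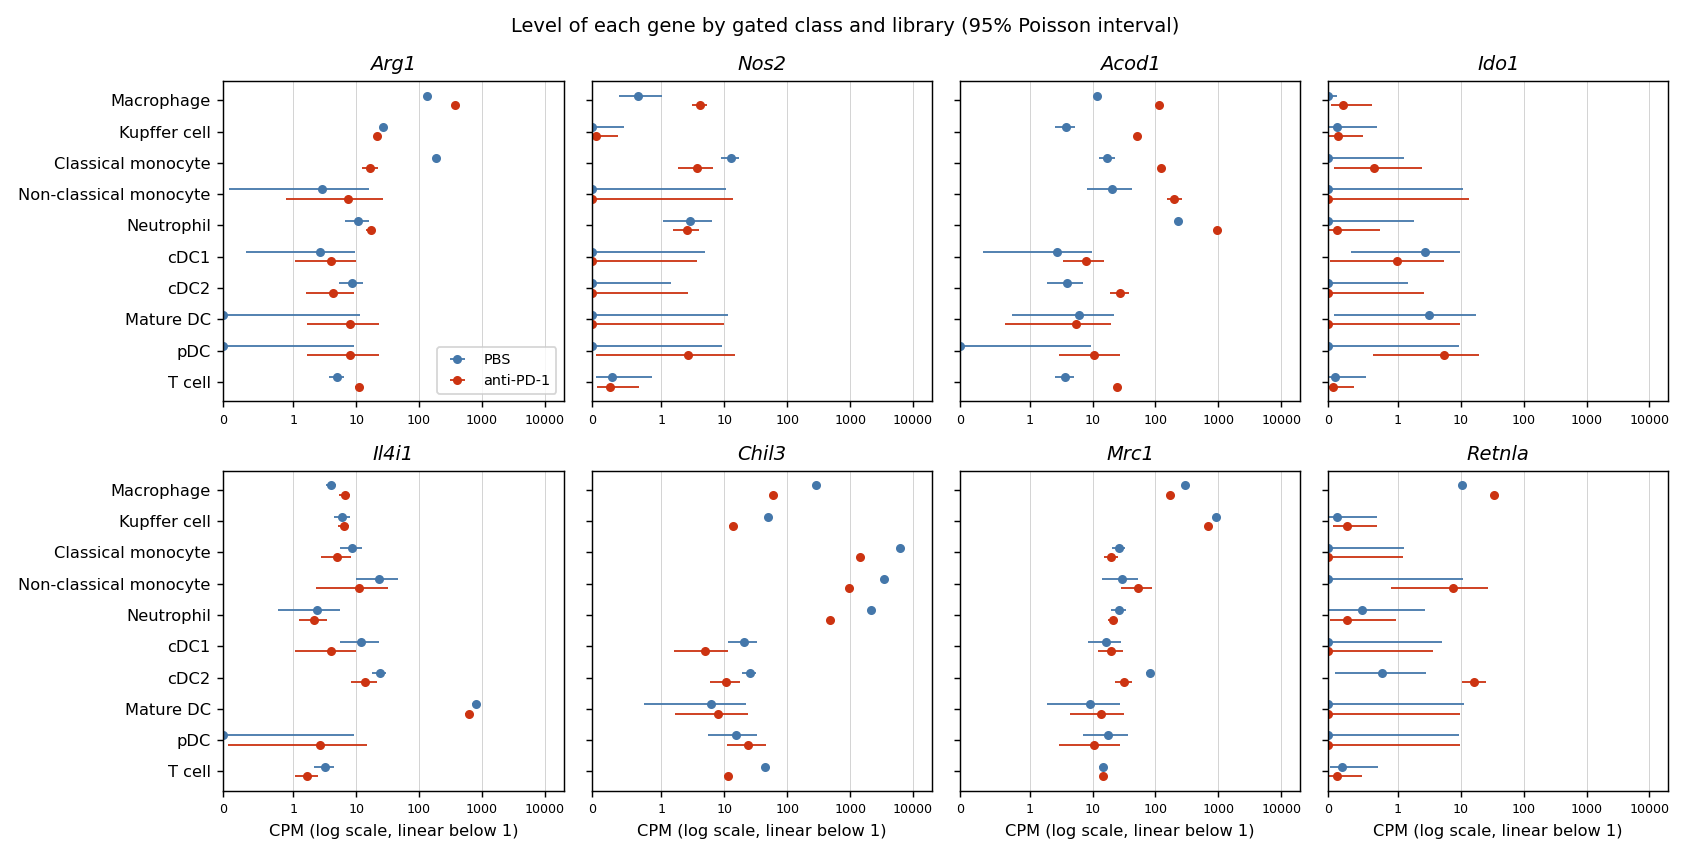
Level of each gene in CPM (log scale, linear below 1) in each myeloid class and in T cells, for the PBS library (blue) and the anti–PD-1 library (red), with 95% Poisson intervals. *Acod1* was higher with anti–PD-1 in macrophages (115 against 11.8 CPM) and *Chil3* lower (58.3 against 286.8 CPM), while *Il4i1* stood out in mature DCs (795.8 and 615.6 CPM) and *Ido1* stayed near 0.

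*Arg1*, the arginase that turns arginine into ornithine and urea, had 5306 UMIs with PBS and 6231 with anti–PD-1, of which 87.0% and 91.6% were in myeloid cells. In macrophages it was at 131.7 CPM with PBS and 374.4 CPM with anti–PD-1, on 3808 and 5196 UMIs. The log2 ratio was 1.47 (1.41 to 1.53), which put *Arg1* at rank 177 from the top of 15789 measured genes. T cells had 4.93 and 11.0 CPM. After thinning every cell to 1000 UMIs, 3.93% of PBS macrophages (3.29 to 4.65) and 8.94% of anti–PD-1 macrophages (7.53 to 10.5) had an *Arg1* UMI, against 0.338% and 0.948% of T cells. Without thinning the macrophage shares were 11.1% and 16.7%, and those of T cells 1.04% and 3.73%. The higher level in the anti–PD-1 library thus came with a larger share of positive cells.

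Classical monocytes, the blood-derived precursors of many tumor macrophages, differed in the opposite direction for *Arg1*. Their level was 184 CPM with PBS and 16.9 CPM with anti–PD-1, on 544 and 51 UMIs, a log2 ratio of −3.11 (−3.45 to −2.77), so that only 2 of 11879 measured genes ranked lower. The monocyte value rested on few cells: 2.78% of PBS and 0.911% of anti–PD-1 monocytes had an *Arg1* UMI after thinning (7.08% and 5.04% without), and 8 PBS monocytes had 10 or more. In the gate, 42.7% of PBS and 35.8% of anti–PD-1 monocytes had a UMI of *Elane*, *Mpo*, *Prtn3* or *Ctsg*, against 0.769% and 5.03% of T cells, and without these cells the *Arg1* ratio was −1.58. Among Y cells (those in which a Y-linked gene but not *Xist* was counted) the difference did not hold, with 1 UMI in 34 PBS monocytes and 26 in 256 anti–PD-1 monocytes, a log2 ratio of 0.98 (−0.72 to 1.86) at levels near T cells. In Kupffer cells *Arg1* was at 27.1 and 21.7 CPM (−0.27, −0.48 to −0.06), but 124 of the 217 PBS UMIs were in 1 cell, and without the highest cell of each library the ratio was 0.40. With classes taken from clusters it was −1.49, and the Kupffer cells of cluster 4 (855 and 1387 cells, most of the class) had 26.8 and 6.21 CPM, so the direction depended on which cells were counted. Among Y cells of this class it was at 2.24 and 25.3 CPM on 3 and 282 UMIs (2.06, 1.38 to 2.48). In neutrophils *Arg1* was at 10.6 and 17.0 CPM (0.50, 0.02 to 0.97), somewhat above T cells in each library. Outside the myeloid classes the urea cycle enzyme was, as is known for liver, at 864 CPM in the 121 PBS hepatocytes and 651 CPM in the 32 anti–PD-1 hepatocytes.

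By cluster, *Arg1* was at 15.1 CPM in the PBS macrophages of cluster 7, 286 CPM in those of cluster 12 and 421 CPM in the anti–PD-1 macrophages of cluster 9, so its level differed within the PBS class as well.

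*Arg1* was held by a small set of macrophages in both libraries. Cells with 10 or more *Arg1* UMIs, called *Arg1*-rich here, were 98 of 3387 PBS macrophages (2.89%, 2.36 to 3.52) and 95 of 1700 anti–PD-1 macrophages (5.59%, 4.54 to 6.79). They held 81.9% and 91.0% of the macrophages' *Arg1* UMIs, while 3012 and 1416 macrophages had none. The limit cuts a range, with 43 and 36 cells at 5 to 9 UMIs, and *Arg1*-rich cells were deeper (median 14224 against 7572 UMIs with PBS, 14930 against 6791 with anti–PD-1). The richest 5% of macrophages held 92.3% and 88.9% of *Arg1* UMIs and 92.0% and 87.1% of *Chil3* UMIs. For *Mrc1* they held 33.5% and 43.8%. *Arg1* and *Chil3* were thus concentrated and *Mrc1* was spread over many cells.

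**Figure D2:**
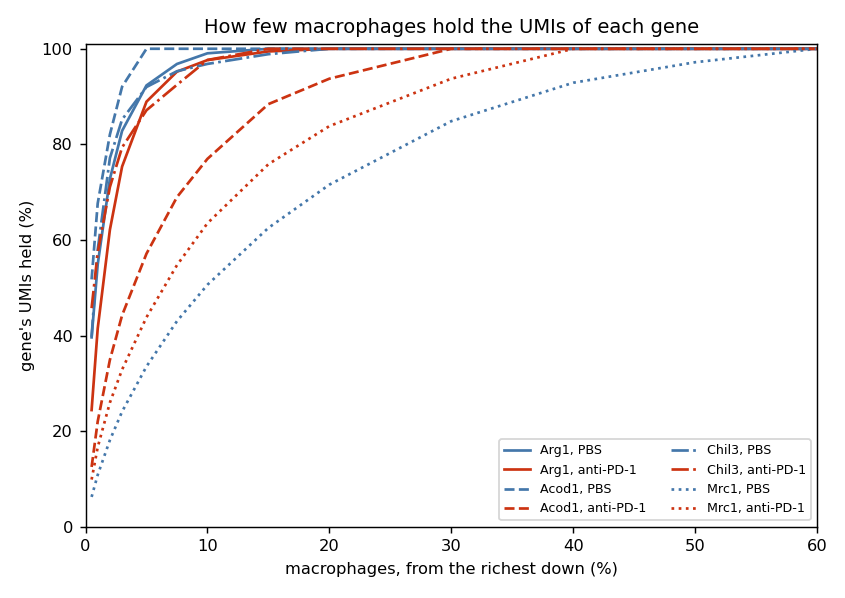
Share of each gene's macrophage UMIs (y axis, %) held by the macrophages richest in it (x axis, % of cells), for the PBS library (blue) and the anti–PD-1 library (red). The richest 5% held 92.3% and 88.9% of *Arg1* UMIs but 33.5% and 43.8% of *Mrc1* UMIs. With PBS 3.81% of macrophages had an *Acod1* UMI, which by itself sets where that curve reaches 100%.

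Macrophages rich in *Arg1* had higher levels of hypoxia-response genes in both libraries. This comparison is within a library and describes cells chosen for *Arg1*, with no test. The gene lists were chosen with earlier results of these data known. All 12 genes of the hypoxia list measured in both libraries were higher in *Arg1*-rich cells than in macrophages with no *Arg1* UMI, and 10 of 12 were at least 2-fold higher in both, against 23.5% and 1.11% of 9947 genes. The median log2 difference of the list was 1.48 with PBS and 1.66 with anti–PD-1, and with cells split by an *Arg1* UMI after thinning it was 1.41 and 1.54, again with 12 of 12 higher. Of 4 genes picked after their values were seen, *Egln3*, an oxygen sensor, was at 6.71 CPM in cells without *Arg1* and 67.9 CPM in *Arg1*-rich cells with PBS, and at 7.38 and 86.7 CPM with anti–PD-1. *Bnip3*, a mitophagy receptor, went from 46.1 to 218 CPM and from 47.2 to 242 CPM in the same order. *Slc7a2*, a transporter that brings arginine into the cell, was at 18.3 and 68.5 CPM with PBS and 9.56 and 68.8 CPM with anti–PD-1. The classical activation list was lower in *Arg1*-rich cells, with 12 of 16 genes lower and none higher in both libraries (42.8% of all genes lower in both). *Cxcl9*, an IFN-γ-induced chemokine, was at 215 against 68.5 CPM with PBS and 488.5 against 18.6 CPM with anti–PD-1. The dissociation-stress list was lower in the same cells, also with 12 of 16 genes lower in both libraries (medians −0.64 and −0.56), and its part in the result was not tested. Of the other members, *Chil3* was higher in *Arg1*-rich cells (229 against 796 CPM, and 32.4 against 218 CPM). *Mrc1* differed by library (289 against 325 CPM with PBS, 179 against 112 CPM with anti–PD-1), and so did *Acod1* (12.6 against 5.38 CPM with PBS, 91.1 against 182 CPM with anti–PD-1).

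**Figure D3:**
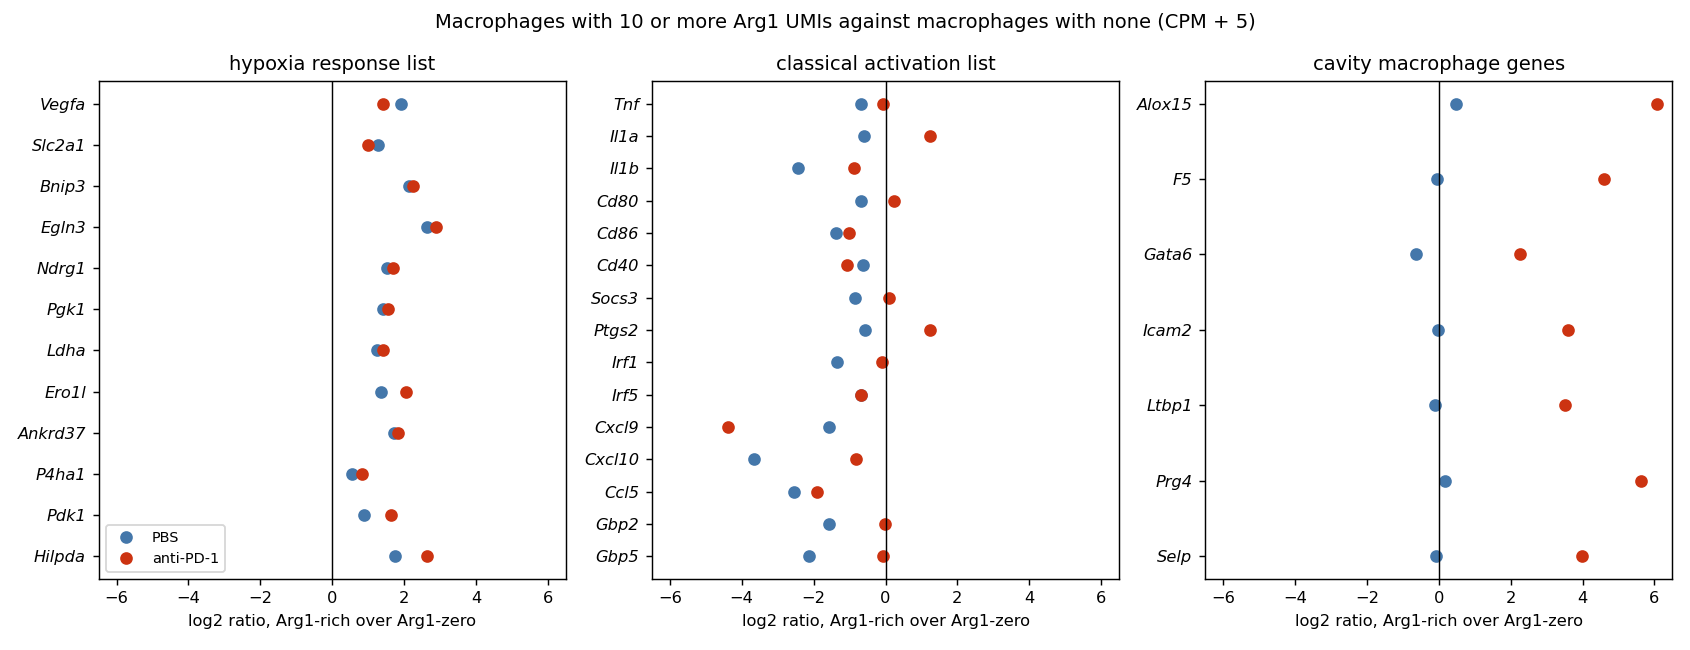
Log2 ratio of CPM + 5 in macrophages with 10 or more *Arg1* UMIs over macrophages with none, gene by gene, in the PBS library (blue) and the anti–PD-1 library (red). All 12 hypoxia-response genes lay above 0 in both libraries, 11 of the 15 classical activation genes plotted lay below 0 in both, and the 7 cavity macrophage genes lay above 2 with anti–PD-1 but not with PBS (*Prg4* 5.62 against 0.18). The cavity genes were listed after their values had been seen.

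The *Arg1*-rich cells of the 2 libraries differed in other genes. Of the 20 genes that led them over cells without *Arg1*, 4 were shared (*Car4*, *F10*, *Fn1* and *Saa3*). Each PBS leader was nonetheless also higher in the anti–PD-1 *Arg1*-rich cells. *F13a1* had log2 ratios of 3.03 with PBS and 3.21 with anti–PD-1, *F7* 2.91 and 3.61, and *Mmp8*, the lowest with anti–PD-1, 2.25 and 0.04. The reverse did not hold for all anti–PD-1 leaders, with *Slpi* at 5.82 with anti–PD-1 and −0.49 with PBS. With anti–PD-1 the leaders included *Alox15* and *Prg4*, and 7 genes known from macrophages of the peritoneal cavity (*Alox15*, *F5*, *Gata6*, *Icam2*, *Ltbp1*, *Prg4*, *Selp*) were then listed after their values had been seen. *Prg4*, a lubricin, was at 44.2 CPM in anti–PD-1 macrophages without *Arg1* and 2418 CPM in *Arg1*-rich ones, but at 22.5 and 26.2 CPM with PBS. *Gata6*, the transcription factor of cavity macrophages, was at 3.31 and 35.1 CPM with anti–PD-1 and at 4.86 and 1.34 CPM with PBS. Macrophages with UMIs of at least 3 of the 7 genes were 11 of 3387 with PBS (0.325%, 0.162 to 0.580) and 72 of 1700 with anti–PD-1 (4.24%, 3.33 to 5.30), against 0.0334% and 0.273% of T cells. They had 973 CPM of *Arg1* with PBS and 2387 CPM with anti–PD-1, and held 2.39% and 44.7% of the macrophages' *Arg1* UMIs. In Kupffer cells 16 such anti–PD-1 cells held 43.2% of the *Arg1* UMIs. Without these cells macrophages had 129 and 223 CPM of *Arg1*, a log2 ratio of 0.77 that was under 2-fold. The 7 genes were listed with their values in *Arg1*-rich cells known. The high *Arg1* of these cells and the lower ratio without them therefore follow in part from that choice. Such macrophages included 42 of the 95 *Arg1*-rich ones with anti–PD-1 and 2 of the 98 with PBS. With anti–PD-1 they were deeper (median 13640 UMIs, against 7488 over the class). The labels do not say how many animals these cells came from.

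*Nos2*, the inducible nitric oxide synthase and the arginine-consuming marker of classical activation, was scarce. Whole-library totals were 92 UMIs with PBS and 115 with anti–PD-1. In macrophages it was at 0.657 CPM (19 UMIs) and 4.04 CPM (56 UMIs), a log2 ratio of 0.68 (0.50 to 0.82), and 0.0304% and 0.203% of thinned macrophages had a UMI (0.325% and 1.53% without thinning), against 2 of 2959 PBS T cells (0.0676%) and 0 of 3269 anti–PD-1 T cells (up to 0.113% by the exact interval). The unthinned T cell shares were 0.1003% and 0.121%, and the thinned PBS macrophage share was not above background. In classical monocytes *Nos2* was at 12.5 and 3.64 CPM on 37 and 11 UMIs (log2 ratio −1.02, −1.48 to −0.47), with 16 of the 37 UMIs in 1 PBS cell, and the ratio was 0.00 without cells holding granule genes. In no other myeloid class but neutrophils (2.89 and 2.55 CPM) did *Nos2* reach 10 UMIs.

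Of 15 measured genes of arginine and nitric oxide metabolism in macrophages, 8 were higher and 7 lower with anti–PD-1, where 31.0% of all genes were higher, and 3 were at least 2-fold higher, with a median log2 ratio of 0.01 against −0.09 over all genes. *Ass1*, which rebuilds arginine from citrulline, was at 33.9 and 106 CPM (1.52, 1.41 to 1.62), and *Arg2*, the mitochondrial paralog of *Arg1*, at 6.40 and 24.9 CPM (1.39, 1.21 to 1.56). The lowest were *Pts*, of tetrahydrobiopterin synthesis, at −0.50 and *Srm*, which makes spermidine, at −0.41. The paralogs *Nos1* and *Nos3* had 6 and 20 UMIs with PBS and 1 and 2 with anti–PD-1. In neutrophils *Arg2* was at 279 and 531 CPM, a log2 ratio of 0.92 (0.79 to 1.04).

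*Acod1*, the itaconate-producing enzyme of inflammatory myeloid cells, had the widest difference of the 8 over the library totals, at 1036 UMIs with PBS and 10952 with anti–PD-1. Neutrophils carried the most, at 231 CPM with PBS and 936.5 CPM with anti–PD-1 (480 and 6979 UMIs), a log2 ratio of 2.00 (1.86 to 2.13). After thinning 14.2% (12.2 to 16.4) and 32.6% (30.8 to 34.3) of neutrophils had a UMI, and 18.6% and 44.2% without thinning. In macrophages *Acod1* was at 11.8 and 115 CPM on 340 and 1598 UMIs, a log2 ratio of 2.84 (2.71 to 2.97) that ranked 21 of 15789. The share of macrophages with a UMI was 0.731% (0.469 to 1.09) and 7.18% (5.91 to 8.61) after thinning, and 3.81% and 25.9% without. T cells were at 3.65 and 24.1 CPM, with 0.304% and 1.93% of thinned cells and 0.602% and 5.18% of unthinned cells holding a UMI. *Acod1* in macrophages was thus above the T cell background in each library.

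Kupffer cells had 3.75 CPM of *Acod1* with PBS, as low as T cells, and 50.9 CPM with anti–PD-1 (30 and 745 UMIs), a log2 ratio of 2.68 (2.42 to 2.91) that ranked 12 of 14279. Classical monocytes were at 16.9 and 122 CPM (2.54, 2.19 to 2.89) and non-classical monocytes at 20.4 and 200.6 CPM (3.02, 2.03 to 4.04). The non-classical value rested on 7 UMIs in 2 PBS cells and 54 UMIs in 9 anti–PD-1 cells, 18 of these in 1 cell. cDC2 had 3.87 and 27.2 CPM (1.86, 1.25 to 2.36), near the T cell level in both libraries. Neutrophil RNA moved with these values. The 8 neutrophil markers summed to 508 CPM in PBS macrophages and 1120 CPM in anti–PD-1 macrophages, or 0.589% and 1.25% of their level in neutrophils, and all 8 were higher with anti–PD-1. That share of the neutrophil *Acod1* level is 1.36 and 11.7 CPM, against the 11.8 and 115 CPM measured. In anti–PD-1 Kupffer cells the same reckoning gives 8.87 CPM against 50.9 CPM, but in cDC2 19.8 against 27.2 CPM. In anti–PD-1 T cells it gives 10.7 against 24.1 CPM, less than was measured. Outside the compared classes, 28 anti–PD-1 mast cells or basophils held 216 *Acod1* UMIs (1852 CPM), and the 25 with PBS held 5. The 216 UMIs were in 10 cells, with 74 in 1 cell. Of the 28 cells 6 had doublet scores among the highest 5% of their library, as had 11 of the 25.

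Of 16 TCA cycle enzymes, whose intermediate cis-aconitate *Acod1* draws off, 3 were higher and 13 lower in anti–PD-1 macrophages (69.0% of all genes were lower), with a median log2 ratio of −0.14 and none past 2-fold. Under median-ratio scaling 10 of the 16 were higher, so the direction of the list depends on the scaling. The highest were *Mdh2* (0.18) and *Idh3b* (0.13), and the lowest *Idh1* (−0.61) and *Aco1* (−0.45), both cytosolic.

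*Ido1*, which starts tryptophan breakdown, was almost absent, at 7 UMIs with PBS and 30 with anti–PD-1. Macrophages had 0 UMIs with PBS, which allows up to 0.104 CPM at a floor of 3 UMIs, and 3 with anti–PD-1. The largest group, 12 of the 30 anti–PD-1 UMIs, was in plasma cells (8.68 CPM, against 0.549 CPM and 1 UMI with PBS), and no cell had more than 4. cDC1, dendritic cells known to use *Ido1*, had 2 and 1 UMIs. In no myeloid class did the depth allow a comparison, and the paralog *Ido2* had 1 and 1 UMIs in macrophages.

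*Il4i1*, a secreted oxidase of phenylalanine and tryptophan, was a gene of mature DCs. These had 258 and 230 UMIs, or 795.8 CPM with PBS and 615.6 CPM with anti–PD-1, a log2 ratio of −0.37 (−0.63 to −0.11). A UMI was found in 52.9% (40.6 to 64.9) and 38.6% (26.0 to 52.4) of thinned mature DCs, and the intervals overlap. Without thinning the shares were 82.9% and 66.1%, against 0.936% and 0.697% of T cells (0.237% and 0.184% thinned). In macrophages *Il4i1* was at 4.01 and 6.63 CPM (0.37, 0.16 to 0.58), against 3.16 and 1.66 CPM in T cells. Its ratio was negative in cDC2 (23.6 and 13.6 CPM, −0.62, −1.21 to −0.03), but 0.37 with cells gated after thinning. B cells, another known source of this enzyme, had 35.7 and 24.3 CPM. Mature DCs thus stood apart from every other class in both libraries.

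Of 12 measured genes of tryptophan and kynurenine metabolism in macrophages, 6 were higher and 6 lower (31.0% of all genes higher), 1 of them at least 2-fold higher, and 9 were higher under median-ratio scaling. *Tiparp*, a target of the aryl hydrocarbon receptor, was at 53.7 and 150 CPM (1.40, 1.31 to 1.49) and *Wars*, the tryptophanyl-tRNA synthetase that IFN-γ induces, at 28.1 and 48.1 CPM (0.68). *Kynu*, which breaks down kynurenine, was at 14.5 and 7.21 CPM (−0.67) and *Cyp1b1*, another receptor target, at −0.50.

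*Chil3*, which encodes the chitinase-like protein Ym1, was the most abundant member with PBS, at 35986 UMIs. With anti–PD-1 it had 9872 UMIs, fewer than *Mrc1* (13555) and *Acod1* (10952). Classical monocytes had 6263 and 1416 CPM (18504 and 4279 UMIs), a log2 ratio of −2.14 (−2.19 to −2.09). Neutrophils had 2167 and 486 CPM, a ratio of −2.15 (−2.21 to −2.08), and non-classical monocytes 3409 and 973 CPM (−1.80). After thinning a UMI was found in 64.8% (60.1 to 69.3) and 42.4% (37.7 to 47.1) of classical monocytes and in 44.4% (41.4 to 47.4) and 16.0% (14.7 to 17.4) of neutrophils. The unthinned shares were 72.8% and 54.8%, and 49.8% and 24.1%. In non-classical monocytes the thinned shares were 37.1% (25.9 to 49.5) and 23.1% (12.5 to 36.8), with overlapping intervals, and the unthinned 54.3% and 30.9%. Classical monocytes and neutrophils were thus lower both in level and in share.

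In macrophages *Chil3* was at 286.8 and 58.3 CPM on 8295 and 809 UMIs, a log2 ratio of −2.20 (−2.30 to −2.11), and only 3 of 15789 genes ranked lower. Thinned shares were 6.76% (5.92 to 7.67) and 3.05% (2.23 to 4.06), unthinned 17.8% and 11.1%. T cells had 44.2 and 11.5 CPM, a ratio of −1.57 (−1.77 to −1.38), with 2.47% and 1.13% of thinned cells and 5.75% and 4.00% of unthinned cells positive. Of the 8295 PBS UMIs, 5502 were in 96 macrophages that clustered with monocytes (6633 CPM). With classes taken from clusters, the macrophage ratio was −0.82. Kupffer cells were at 48.9 and 13.6 CPM (−1.54, −1.73 to −1.34), close to T cells in each library. Their thinned shares (2.08% and 1.08%) were also close to those of T cells, while the unthinned shares (10.2% and 6.18%) were higher. Kupffer cells were deeper (median 9020 and 9051 UMIs). The neutrophil reckoning used for *Acod1* gives 7.69 CPM in PBS Kupffer cells and 10.9 CPM in PBS T cells, less than was measured in each. With anti–PD-1 it also gives less than was measured in both classes. T cells are not matched in depth, so whether Kupffer cells held *Chil3* above background was not settled. The paralog *Chil4*, nearly identical in sequence, had 2 and 2 UMIs in macrophages. *Chil1* had 33 and 21 there, and in neutrophils was at 246 and 144 CPM (−0.76, −0.91 to −0.61).

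*Mrc1*, the mannose receptor CD206, was spread over Kupffer cells and macrophages and was modestly lower in both with anti–PD-1. The macrophage markers used for the gate were lower too, at a summed 72784 and 53886 CPM in macrophages (1 of 8 higher) and 62804 and 45052 CPM in Kupffer cells (1 of 8 higher), and the Kupffer markers in Kupffer cells were at 18156 and 15772 CPM (1 of 5 higher). Their part in the *Mrc1* difference was not tested. Kupffer cells had 927.5 and 686.5 CPM on 7430 and 10052 UMIs, a log2 ratio of −0.43 (−0.47 to −0.39). Macrophages had 293.9 and 169.2 CPM on 8499 and 2348 UMIs, a ratio of −0.78 (−0.84 to −0.71). A UMI was found in 58.0% (54.7 to 61.4) and 41.4% (38.9 to 43.9) of thinned Kupffer cells and in 21.2% (19.8 to 22.6) and 13.4% (11.7 to 15.3) of thinned macrophages. The unthinned shares were 93.0% and 81.7%, and 57.1% and 38.7%, against 4.25% and 5.39% of T cells (1.49% and 1.84% thinned). T cells had 14.7 and 14.9 CPM (0.01, −0.21 to 0.24), B cells 26.7 and 16.7 CPM (−0.55, −0.95 to −0.14) and tumor cells 11.2 and 19.4 CPM (0.59, 0.20 to 0.97), so the background did not differ in 1 direction. In cDC2 *Mrc1* was at 81.3 and 31.5 CPM (−1.24, −1.67 to −0.82), but at a ratio of 0.13 without cells holding a marker of another lineage. Classical monocytes (26.1 and 19.9 CPM) and neutrophils (26.5 and 20.9 CPM) were near background. Liver endothelium, which uses the receptor for clearance, had 701 and 514 CPM (−0.45, −0.63 to −0.26). Within the PBS macrophages *Mrc1* was at 240 CPM in cluster 7 and 371 CPM in cluster 12, and it was at 161 CPM in the anti–PD-1 cluster 9. The paralog *Mrc2* had 29 and 7 UMIs in macrophages.

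*Retnla*, which encodes RELMα, was a gene of single cells. It had 574 UMIs with PBS and 505 with anti–PD-1, and cells with 10 or more numbered 9 and 3. In macrophages it was at 10.6 and 33.8 CPM, a log2 ratio of 1.31 (1.15 to 1.47), but 432 of the 469 anti–PD-1 UMIs were in 1 cell. Without the highest cell of each library the ratio was −0.47. Thinned shares of macrophages were 0.183% (0.0671 to 0.397) and 0.339% (0.110 to 0.788), and unthinned 0.502% and 0.647%, against 0.0669% and 0.0303% of T cells without thinning, where 2 and 2 UMIs were found. In cDC2 all 23 anti–PD-1 UMIs were likewise in 1 cell. The members' count of 3 macrophage genes past 2-fold therefore includes 1, *Retnla*, that 1 cell decided. The paralogs *Retnlg*, a neutrophil gene (5769 and 4494 CPM in neutrophils), and *Retnlb* are similar in sequence, and how reads shared with them were counted is not stated.

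**Figure D4:**
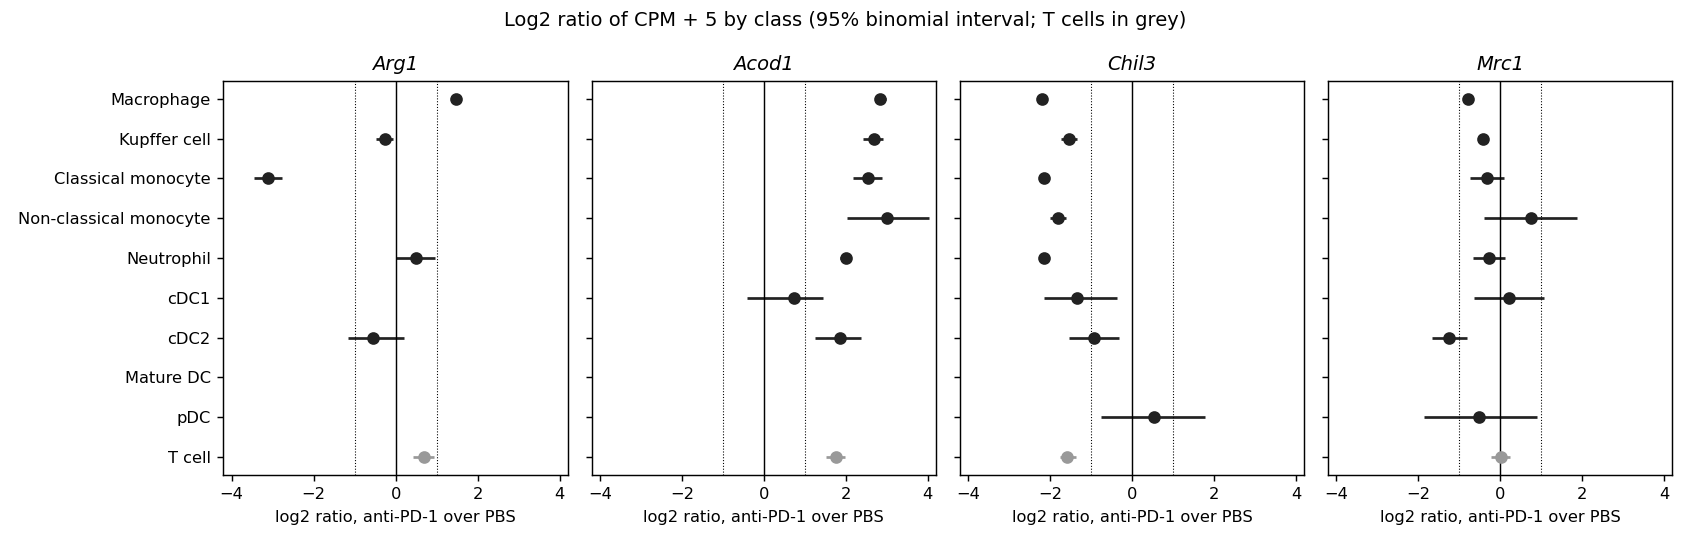
Log2 ratio of anti–PD-1 over PBS (CPM + 5) by class, for the 4 members with the most UMIs in macrophages, with 95% binomial intervals. Classes with fewer than 10 UMIs are left blank, T cells are grey and dotted lines mark 2-fold. *Acod1* lay right of 0 in macrophages (2.84) and Kupffer cells (2.68), *Chil3* left of 0 (−2.20 and −1.54), and *Arg1* on opposite sides in macrophages (1.47) and classical monocytes (−3.11).

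Since the PBS library mixed cells of both sexes, each member was also compared among the Y cells alone. Both *Xist* and Y-linked UMIs were found in 409 PBS cells and 7 anti–PD-1 cells, so the split by these UMIs is not exact. *Acod1* kept its direction, with 7.94 and 126 CPM in 346 PBS and 903 anti–PD-1 macrophages (3.34, 2.97 to 3.69), 1.49 and 47.9 CPM in Kupffer cells (3.03, 2.34 to 3.36) and 156 and 900.0 CPM in neutrophils (2.49, 1.92 to 3.13). *Arg1* in macrophages was at 100.1 and 386 CPM (1.90, 1.74 to 2.05), and *Mrc1* at 345 and 172.5 CPM (−0.98, −1.08 to −0.87). The *Chil3* difference was smaller in these cells, at 81.5 and 55.0 CPM in macrophages (−0.53, −0.73 to −0.33) and 1498 and 656.5 CPM in neutrophils (−1.18, −1.38 to −0.98). In classical monocytes it was 3042 and 1433 CPM (−1.08, −1.20 to −0.97). In Kupffer cells *Chil3* was at 14.2 and 13.1 CPM (−0.08, −0.62 to 0.45).

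Within the PBS library *Chil3* was higher in *Xist* cells than in Y cells of the same class. The levels were 268 against 81.5 CPM in macrophages (log2 ratio 1.66, 1.49 to 1.83), 74.8 against 14.2 CPM in Kupffer cells (2.06, 1.53 to 2.58) and 2710 against 1498 CPM in neutrophils (0.85, 0.64 to 1.07). Over all PBS cells the Kupffer cell level was close to that of T cells (48.9 and 44.2 CPM), and 127 of the class's 392 PBS UMIs were in 1 cell. *Arg1* was also higher in PBS *Xist* cells, with 155 against 100.1 CPM in macrophages (0.60), 36.7 against 2.24 CPM in Kupffer cells (2.53, with 124 of the 162 *Xist* cell UMIs in 1 cell) and 153 against 4.13 CPM in classical monocytes (4.11, on 230 and 1 UMIs). *Mrc1* was nearly even, with 296.5 against 345 CPM in macrophages (−0.21) and 948 against 906 CPM in Kupffer cells (0.06). *Acod1* was at 14.0 against 7.94 CPM in macrophages (0.56). How many animals of each sex these cells came from is not given in the labels.

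**Figure D5:**
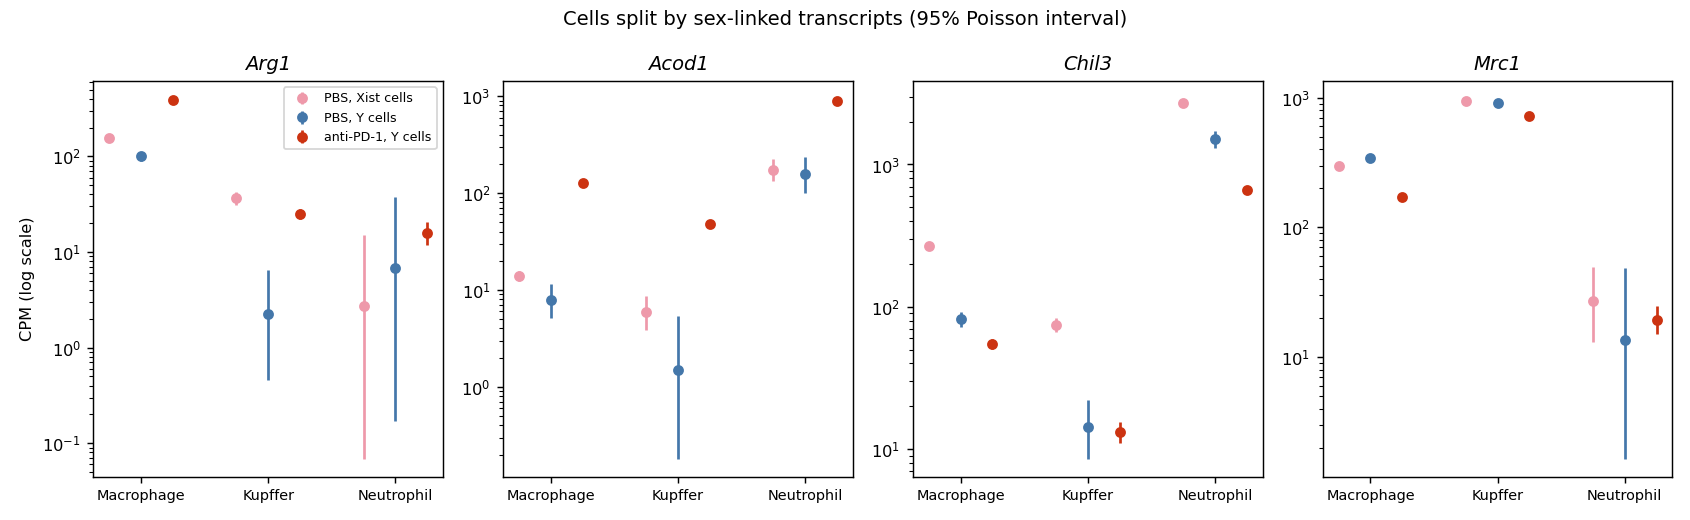
CPM (log scale) of 4 members in PBS cells with *Xist* and no Y-linked UMI (*Xist* cells), in PBS Y cells and in anti–PD-1 Y cells, with 95% Poisson intervals. *Acod1* was far higher in anti–PD-1 Y cells than in PBS Y cells (126 against 7.94 CPM in macrophages), whereas *Chil3* in Kupffer cells was 13.1 and 14.2 CPM in the Y cells of the 2 libraries and 74.8 CPM in PBS *Xist* cells.

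Genes that accompany classical activation were higher in anti–PD-1 macrophages beside *Acod1*. Like the other lists, this one was chosen with earlier results of these data known, so its counts are descriptions only. All 19 measured genes of that list were higher (31.0% of all genes were), 14 of them at least 2-fold (2.2% of all genes), with a median log2 ratio of 1.69 against −0.09 over all genes. *Il6* was at 0.830 and 116 CPM (4.38, 4.27 to 4.46) and *Ptgs2*, the prostaglandin synthase COX-2, at 9.85 and 269 CPM (4.21, 4.09 to 4.33). The smallest ratios were those of *Irf5* (0.06) and the costimulatory gene *Cd86* (0.20). In Kupffer cells 16 of 19 genes were higher (median 1.43, with 33.9% of all genes higher), in neutrophils 16 of 18 (1.34, 28.9%) and in classical monocytes 16 of 17 (1.59, 38.7%). Genes that respond to tissue dissociation moved in the same way. All 16 of them were higher in macrophages (median 1.33), with *Fosb* at 2.41 and *Atf3* at 2.26, and all 16 in Kupffer cells (1.18), and their part in the result was not tested.

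Of the alternative activation list 14 of 23 genes were higher and 9 lower in macrophages (18 higher under median-ratio scaling), against 31.0% of all genes higher. At least 2-fold, 6 were higher (2.2% of all genes) and none lower (0.329%), and the median was 0.26. *Alox15*, a lipoxygenase also among the cavity genes, was at 9.58 and 215 CPM (3.91, 3.79 to 4.04) and *Il10* at 10.4 and 102 CPM (2.79, 2.66 to 2.93). The scavenger receptor *Stab1* (439 and 232 CPM, −0.90, −0.96 to −0.85) and the inhibitory receptor *Cd200r1* (28.2 and 16.0 CPM, −0.66) were lowest. *Stab1* thus stood with *Mrc1* on the lower side. Of 13 hypoxia-response genes 12 were higher, 3 at least 2-fold (median 0.36), led by *Vegfa* (13.8 and 143 CPM, 2.97) and *Hilpda* (48.2 and 187 CPM, 1.85), with *Pdk1* (−0.10) and *Adm* (0.24) at the other end.

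Among ligands, *Il10* was at 43.6 and 409 CPM in Kupffer cells (3.09, 2.95 to 3.23) and *Tnf* at 88.6 and 239 CPM in macrophages (1.38, 1.31 to 1.45). *Ifng*, the inducer of classical activation, was at 87.1 and 210 CPM in T cells (1.23, 1.12 to 1.33), whereas *Il4*, the inducer of alternative activation, was at 27.8 and 17.4 CPM there (−0.55, −0.75 to −0.35). *Il13* had 7 and 5 UMIs in T cells and none in macrophages. *Tgfb1* (−0.11) and *Csf1* (0.61) differed less in macrophages. *Csf2* had 13 and 16 UMIs in macrophages, and *Il34* 10 and 1. Of 21 receptors and signal transducers 12 were higher and 9 lower in macrophages (16 higher under median-ratio scaling), 5 of them at least 2-fold higher (31.0% and 2.2% of all genes), with *Irf1*, which IFN-γ induces, at 1.94 and *Ifngr1* at −0.63 and *Csf1r* at −0.41.

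Co-detection of members in a cell was counted after thinning, which keeps such counts low. In thinned PBS macrophages 28 cells had both *Arg1* and *Chil3*, where the product of the 2 shares gives 8.72, and with anti–PD-1 10 cells did, against 4.02. *Arg1* and *Acod1* occurred together in 12 anti–PD-1 macrophages, against 9.47. *Arg1* and *Mrc1* were together in 30 PBS cells, against 27.3, and in 17 anti–PD-1 cells, against 17.7. *Chil3* and *Mrc1* were together in 35 PBS macrophages, against 47.0, and in 0 anti–PD-1 macrophages, against 6.03. *Acod1* and *Mrc1* were together in 4 and 8, against 5.08 and 14.2. In classical monocytes *Acod1* and *Chil3* were together in 27 anti–PD-1 cells, against 19.9, and in 3 PBS cells, against 3.89. In neutrophils *Acod1* and *Chil3* were together in 43 PBS cells, against 68.8, and in 96 anti–PD-1 cells, against 150. These counts are descriptions, and depth shared by genes of a cell can enter them.

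Over 32 sums of UMIs per class and library, which share library, depth and free RNA, the genes with patterns most like each member were found among genes with at least 200 UMIs. *Acod1* was most like *Slfn4* (Pearson r = 0.95), *Trem1* (0.93) and *Hcar2* (0.92), and *Il4i1* most like *Relb*, *Gnl2* (both 0.91) and *Mreg* (0.90). *Chil3* was most like *AI839979* (0.92), *Cd177* (0.87) and *Sirpb1c* (0.85), and *Mrc1* most like *Parvb*, *Ptgs1* and *Stab1* (all 0.86). For *Arg1* the genes were *F7* (0.83), *Nxpe5* (0.78) and *4930430E12Rik* (0.77), and for *Retnla* they were *Ccl8* (0.74), *Fcrls* (0.69) and *Slc13a3* (0.68). *Nos2* was most like *Nt5dc2* (0.74), *Plppr3* and *Prtn3* (both 0.71), on 191 UMIs of *Nos2*. *Ido1* was most like *Gm4316* (0.74) and the immunoglobulin genes *Igkv7-33* and *Igkv4-61* (both 0.70), on 35 UMIs of *Ido1*.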

How the data were processed

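The deposited files hold raw counts of UMIs for each gene in each barcode, which the authors made with Singleron software (version, annotation and strand handling not given in the sources used here) on mm10; Seurat 4.3 is named in the submitters' processing notes. Kept cells had 500 to 5000 detected genes and no more than 10% of UMIs from mitochondrial genes. Each cell took the class with the highest marker score, if that was at least 0.4 of the mean of the 100 best cells and 2 markers were found. Kupffer cells were split from macrophages by the same score rather than by a single *Clec4f* UMI, the rule first planned, because 9.80% of PBS and 32.4% of anti–PD-1 T cells held *Clec4f*. The score was chosen after the data were seen. Leiden clusters of both libraries together, without integration (resolution 1, 2000 variable genes, 30 components, 15 neighbours), served for comparison.

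UMIs were summed by class and library, with exact Poisson intervals on CPM, exact conditional binomial intervals on ratios and Clopper-Pearson intervals on shares. A pseudocount of 5 CPM understates ratios of low genes, and with them the shares of all genes past 2-fold. Shares were taken after thinning to 1000 UMIs. The automatic doublet threshold marked 0 cells, so the 5% of cells with the highest scores were left out as an alternative. Sequence windows were RefSeq's, and 5 of 8 members had one. The ratio and its interval were tried on simulated Poisson counts of macrophage sums, which is the model the interval assumes. UMIs gathered in few cells and differences between animals were not simulated, so that trial does not cover them.

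The members and lists were chosen with earlier results of these data known. Named were all members in each myeloid class, the 2 highest and 2 lowest measured genes of each list in macrophages (at least 50 UMIs), paralogs and ligands, and the 3 genes most like each member; others are said to be chosen after their values were seen. 1 gene of the lists is not reported here by name or in the plots, but is in the counts. Python 3.11.15, numpy 2.4.6, scipy 1.17.1, pandas 2.3.3, scanpy 1.11.5, leidenalg 0.10.2 and matplotlib 3.10.9 were used.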

Additional observations from a re-analysis of the deposited data

Results flagged for a closer look

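The *Arg1* log2 ratio was 1.47 in macrophages and −3.11 in classical monocytes, opposite directions under the same contrast. With 1 library per group this difference was not tested. Among Y cells the monocyte value was 0.98, on 1 and 26 UMIs, and the macrophage value 1.90.

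Cells that passed no gate in the PBS library held 252 *Retnla* UMIs, or 48.4 CPM (42.6 to 54.8), against 1 UMI in the ungated anti–PD-1 cells. These UMIs were in 5 cells, 4 of them with 10 or more.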

How the results depend on the processing

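Of 597 values recomputed under 17 settings, 548 kept their sign. Of the 269 recomputed from a value past 2-fold, 177 stayed within its interval, 76 left it with the same sign, toward or away from 0, and 16 reversed or went to 0. Across the settings the macrophage *Acod1* ratio ranged from 2.76 to 3.34 and that of *Chil3* from −3.35 to −0.53. All values below are log2 ratios in macrophages unless a class is named, and the cause of each change was not tested. With a pseudocount of 1 CPM, *Nos2* was 1.60, *Il4i1* 0.61, *Acod1* 3.19 and *Retnla* 1.58. With median-ratio scaling, *Arg1* was 1.67, *Acod1* 3.03, *Chil3* −2.02, *Mrc1* −0.59 and *Retnla* 1.49. With no upper limit on detected genes, *Arg1* was 1.79 and *Il4i1* 0.65. With clusters in place of the gate, *Arg1* was 1.62, *Chil3* −0.82, *Retnla* 1.15 and cDC2 *Retnla* −2.46. With the gate on thinned cells, *Arg1* was 1.16, *Chil3* −1.78, *Mrc1* −0.64, *Retnla* 1.84, monocyte *Nos2* 0.0248 and cDC2 *Retnla* −3.21. Without cells holding a marker of another lineage, *Arg1* was 1.38, *Nos2* 0.26, *Il4i1* 0.0678, *Chil3* −3.35, *Mrc1* −0.61, *Retnla* −2.76, monocyte *Nos2* 1.74, cDC2 *Acod1* −1.97 and cDC2 *Mrc1* 0.13. With each cell weighing the same, *Chil3* was −2.10 and *Retnla* 0.14. Among Y cells, *Arg1* was 1.90, *Il4i1* 0.0013, *Acod1* 3.34, *Chil3* −0.53, *Mrc1* −0.98, monocyte *Arg1* 0.98, monocyte *Nos2* 1.00 and cDC2 *Retnla* 0. Macrophage *Retnla* in Y cells was 3.35 (3.04 to 3.35), on 0 UMIs with PBS and 450 with anti–PD-1. Of all the class's anti–PD-1 *Retnla* UMIs, 432 were in 1 cell.

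The following were chosen after seeing the data. With a *Clec4f* UMI marking Kupffer cells, *Nos2* was 0.43, *Il4i1* 0.65, *Acod1* 3.00, *Chil3* −1.62, *Mrc1* −0.95 and *Retnla* −1.39. With the T cell level taken off, *Il4i1* was 0.77 and cDC1 *Chil3* 0. Without monocytes holding granule genes, monocyte *Nos2* was 0.00209. Without macrophages holding cavity genes, *Arg1* was 0.77, *Chil3* −2.73, *Mrc1* −0.71 and *Retnla* −1.02. Without the highest cell of each library, *Chil3* was −2.44, *Retnla* −0.47 and cDC2 *Retnla* −0.11.

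No paired analysis was possible because each group had 1 library, and leaving out a replicate was not possible either. Depth limits *Ido1* and *Nos2*, and the small classes, to counts.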

Other observations

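Among cells with 10 or more UMIs of a member in the whole libraries, *Acod1* had 12 with PBS and 292 with anti–PD-1, *Chil3* 584 and 208, *Mrc1* 634 and 435, and *Arg1* 127 and 104. In the anti–PD-1 neutrophils of cluster 2, *Acod1* was at 1068 CPM and *Chil3* at 391 CPM, while the 108 PBS neutrophils of the same cluster had 359 and 958 CPM. The PBS neutrophils of cluster 11 had 230 CPM of *Acod1* and 2382 CPM of *Chil3*. Outside the myeloid classes *Acod1* was at 1.48 and 32.9 CPM in NK cells and 0.938 and 19.6 CPM in B cells.

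In the anti–PD-1 macrophages with cavity genes, *Mrc1* was at 46.3 CPM against 178 CPM in the other macrophages, *Acod1* at 193 against 109 CPM and *Chil3* at 314 against 39.1 CPM.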
